A study of Homo sapiens with 6 samples.

Results

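Cytosolic ribosomal protein genes, which encode the protein parts of the ribosomes that translate nuclear-encoded mRNA, were described in human breast cancer cells after 24 h with CTI-2 (3 libraries) and in cells given no agent (3 control libraries). They were chosen by symbol: the conventional RPL, RPS, RPLP and RPSA symbols and their paralogs, without pseudogenes. This took 84 of the 16362 genes in the count table, 52 of the large and 32 of the small subunit. All cells were labelled MDA-MB-231, a line of triple-negative breast cancer with mesenchymal features. For CTI-2 the sources used here give a code name but no dose, and of the controls they do not say whether a vehicle was added. Amplified cDNA from total RNA was sequenced as long Oxford Nanopore reads. The authors deposited read counts per gene and CPM, which are counts scaled to a library total of 1000000.

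A ribosome holds its proteins in fixed proportions, so cells make them in matched amounts. Their mRNAs are short and abundant, and most begin with a C followed by a run of pyrimidines at the very 5′ end, the terminal oligopyrimidine (TOP) motif, through which the kinase complex mTORC1 and the RNA-binding protein LARP1 control their translation and stability. Several ribosomal proteins also feed back on their own genes, often by steering splicing towards transcripts that are destroyed by nonsense-mediated decay, and some have paralogs whose levels are set separately.

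The sequences around the annotated transcription starts show how closely the members on which the results turn follow the TOP pattern. They come from RefSeq on GRCh38.p14 and were matched by symbol. Each runs 5′ to 3′ over 70 bases before and 30 bases from the annotated start, so that the start is base 71. Capitals mark the longest run of C or T, of at least 5 bases, that touches the window from 5 bases before to 10 bases from the start. The genes that fell are shown first: RPL22L1 at chr3:170870166-170870265 (minus strand), RPL3 at chr22:39319594-39319693 (minus strand), RPS9 at chr19:54200788-54200887 (plus strand) and RPL10A at chr6:35468331-35468430 (plus strand).
RPL22L1: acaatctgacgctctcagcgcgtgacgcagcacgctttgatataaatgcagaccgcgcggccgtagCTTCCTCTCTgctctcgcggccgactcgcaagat
RPL3: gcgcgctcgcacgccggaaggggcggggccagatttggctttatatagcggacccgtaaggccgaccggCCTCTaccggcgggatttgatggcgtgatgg
RPS9: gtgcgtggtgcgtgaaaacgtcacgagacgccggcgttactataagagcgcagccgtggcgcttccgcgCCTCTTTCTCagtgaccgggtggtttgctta
RPL10A: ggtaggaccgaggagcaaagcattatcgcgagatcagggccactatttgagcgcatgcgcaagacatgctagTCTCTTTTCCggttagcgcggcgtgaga
RPL12 at chr9:127451377-127451476 (minus strand) and RPL13A at chr19:49487538-49487637 (plus strand) were lower relative to the other members.
RPL12: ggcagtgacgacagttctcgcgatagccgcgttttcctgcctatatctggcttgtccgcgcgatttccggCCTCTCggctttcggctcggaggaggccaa
RPL13A: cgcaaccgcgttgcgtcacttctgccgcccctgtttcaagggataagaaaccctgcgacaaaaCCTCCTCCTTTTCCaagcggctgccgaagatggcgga
RPS27L at chr15:63157448-63157547 (minus strand) rose and holds no such run, and it is shown with its partner RPS27 at chr1:153990692-153990791 (plus strand) and with RPL22 at chr1:6199566-6199665 (minus strand), the partner of RPL22L1.
RPS27L: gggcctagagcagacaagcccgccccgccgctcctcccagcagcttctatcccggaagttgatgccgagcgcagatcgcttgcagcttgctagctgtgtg
RPS27: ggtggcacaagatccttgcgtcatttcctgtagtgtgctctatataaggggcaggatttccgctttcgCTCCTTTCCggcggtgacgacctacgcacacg
RPL22: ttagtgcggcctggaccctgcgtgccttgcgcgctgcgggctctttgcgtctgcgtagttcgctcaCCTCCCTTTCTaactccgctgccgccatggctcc

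Of the 84 genes, 67 had a promoter in the RefSeq table. A strict TOP start, a C at the annotated first base followed by at least 4 bases that are each C or T on the sense strand, was found in 47 of these (70.1%), against 5.14% of all 27305 genes in the table. A run of at least 5 such bases near the start was found in 61 (91.0%), against 46.1% of all genes. RPL22L1 and RPS9 have the strict start. The run of RPL3 covers the annotated first base but is too short after it, and that of RPL10A begins after it. The median log2 fold change (CTI-2 over control) was 0.10 over the 47 tested members with a strict TOP start and 0.11 over the 20 without one. Outside the members, 567 tested genes had a strict TOP start, of which 21 were called higher and 15 lower, with a median of -0.01, where 3.39 and 4.64% of all tested genes were called higher and lower.

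Total counts were 2208261 to 3153469 in CTI-2 libraries and 2349758 to 3929532 in control libraries, so that 3 counts corresponded to 0.763 to 1.36 CPM. Separate cultures are not stated for the libraries, so p-values measure the spread between these libraries, which may be technical. Of the 6 genes usually present in MDA-MB-231, CD44 (131 to 188 CPM), PLAUR (129 to 229 CPM) and CAV1 (57.0 to 83.4 CPM) were well detected, but VIM, normally one of the line's most abundant transcripts, had 14.5 to 18.9 CPM, EGFR 15.9 to 26.4 CPM and AXL 2.98 to 7.41 CPM. Of the genes usually absent or low, CDH1, ESR1 and GATA3 were at or near 0 and EPCAM had 6.98 to 10.6 CPM. CDKN2A, which this line is described as having lost by deletion, had 254.5 to 612 CPM over the 6 libraries, so the label check went against the label and the identity of the cells was not tested. Of the 9848 genes tested with edgeR's quasi-likelihood test, 8.03% were called at an adjusted p under 0.05, 3.39% higher and 4.64% lower.

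Ribosomal protein mRNA as a whole took much the same share of reads after CTI-2. Members held 19.7, 19.5 and 19.8% of all counts in CTI-2 libraries 1 to 3, against 18.8, 20.7 and 17.4% in control libraries 1 to 3. The CTI-2 values lie inside the control range and much closer together. In bulk RNA, a lower level per cell and fewer cells that express a gene cannot be told apart. The mean was 19.7 ± 0.155% with CTI-2 and 19.0 ± 1.65% in controls (SD, n = 3 each), a difference that did not exceed the spread (two-sided exact permutation test, p = 0.7, where 0.1 is the smallest p that 3 against 3 libraries allow). The 95% exact binomial (Clopper-Pearson) interval of each share is narrow, 20.64 to 20.72% in control 2 and 17.35 to 17.44% in control 3, so the spread of the controls is larger than counting error. Without control 3 the difference in means was -0.09 percentage points, against 0.70 with it, and without control 2 it was 1.55 (exact permutation p = 0.8 and 0.2).

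**Figure D1:**
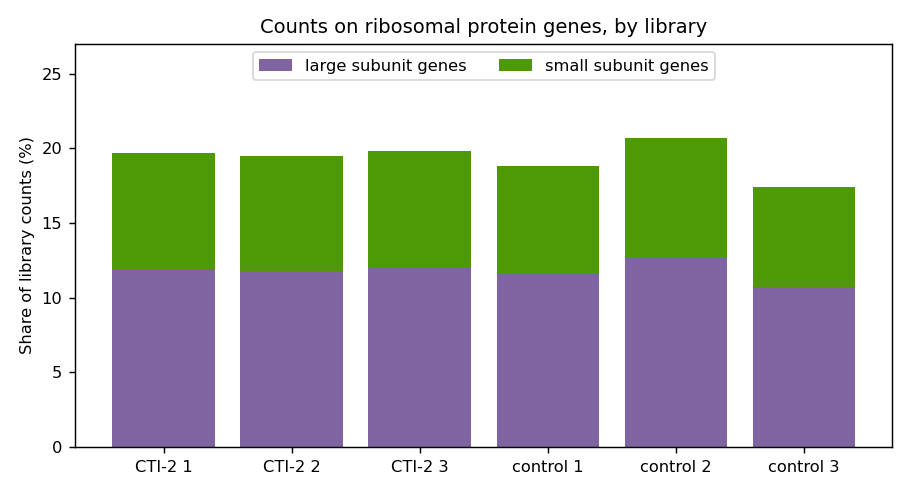
Share of each library's counts (%) on ribosomal protein genes, stacked as large and small subunit genes, in the 3 CTI-2 and the 3 control libraries. The CTI-2 bars are nearly level at 19.5 to 19.8%, while the controls run from 17.4 to 20.7%.

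Within this pool the large subunit had a slightly lower part with CTI-2. Large subunit genes had 1.54, 1.53 and 1.54 counts for each small subunit count in CTI-2 libraries, against 1.59, 1.58 and 1.59 in controls. The groups do not overlap, and the log2 difference was -0.05 (exact permutation p = 0.1, the smallest possible). Without the 4 members called lower, whose choice used the same libraries, the ratio was 1.501, 1.494 and 1.497 with CTI-2 and 1.524, 1.510 and 1.523 in controls. As a mean of log2(CPM + 1) over genes, which gives every member the same weight, the difference was -0.01 (exact permutation p = 0.7).

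Member by member, 4 genes fell, 1 rose and 78 of the 83 tested did not pass the test. RPL22L1, RPL3, RPS9 and RPL10A were lower after CTI-2 and RPS27L was higher, that is 1.2% of the tested members higher and 4.82% lower, against 3.39 and 4.64% of all genes tested. The share called lower is near the background. RPL3L, a paralog known mainly from striated muscle, was below the count filter, with at most 1.01 CPM with CTI-2 and 0.254 CPM in controls. Log2 fold changes of the 78 genes that did not pass ran from -0.49 for RPS10 to 0.53 for RPL7L1, and 62 of them lay between 0 and 0.25. The median over all tested members was 0.10, 0.10 in the large and 0.11 in the small subunit, against -0.01 over all genes tested. DESeq2 called the same 5 members and RPS26 higher, 2 higher and 4 lower, against 3.78 and 3.25% (7.04% in both directions) of the 7163 genes to which it gave an adjusted p. The median SE of a member was 0.12 in edgeR's fit, so changes of this size in single genes could not be told from 0.

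RPL3, which reaches close to the peptidyl transferase centre of the large subunit and is known to regulate its own splicing, was the most abundant gene to fall. It (ENSG00000100316 in the table) had 1483, 1466 and 1618 CPM in CTI-2 libraries, against 3050.2, 3162 and 2784.5 CPM in control libraries. The groups are far apart, the highest CTI-2 library lying well below the lowest control. The log2 fold change was -0.93 ± 0.12 (SE; 1.91-fold lower; adjusted p = 3.5e-06). RPL3 made up 0.754, 0.752 and 0.817% of all member reads with CTI-2, and 1.622, 1.529 and 1.601% of them in controls.

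RPL22L1, the paralog of the large subunit protein RPL22 and a gene that RPL22 is known from mouse cells to repress, fell most. The gene (ENSG00000163584) lies at chr3:170864875-170870483 on the minus strand (GRCh38, GENCODE 29), and had 175, 161 and 176 CPM with CTI-2 and 356, 391 and 311 CPM in controls. Again no library of one group came near the other group. The log2 fold change was -1.01 ± 0.12 (2.01-fold lower; adjusted p = 4.5e-07).

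RPS9 (ENSG00000170889), a small subunit protein at the mRNA entry channel, had 164, 168 and 167 CPM in CTI-2 libraries, against 251, 285 and 239 CPM in controls. CTI-2 libraries hardly differed among themselves and all lay below the controls. Its log2 fold change was -0.59 ± 0.11 (1.51-fold lower; adjusted p = 0.00093). The annotated span of RPS9, chr19:54200742-54249003 on the plus strand, overlaps LILRB3 and LILRA6 on the opposite strand, and since the use of strand in counting is not known here, reads of overlapping genes cannot be told apart.

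RPL10A (ENSG00000198755), which forms the mobile stalk near the exit site of the large subunit, had 1475, 1450.3 and 1502.5 CPM with CTI-2, against 2011, 2242 and 1948 CPM in controls. It fell by 0.44 ± 0.12 on the log2 scale (1.36-fold lower; adjusted p = 0.017). This call is less firm than the 3 above: without CTI-2 library 1, 2 or 3 or control 1 the adjusted p was 0.0999, 0.125, 0.102 and 0.0507. The fold itself lay between -0.59 and -0.32 over all alternatives tried.

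RPS27L, a paralog of the small subunit protein RPS27 known as a p53-induced gene, was the single member that rose. It (ENSG00000185088) had 865, 781 and 769 CPM with CTI-2, against 625, 662 and 619 CPM in controls. The groups do not overlap, and the log2 fold change was 0.39 ± 0.11 (1.31-fold higher; adjusted p = 0.025). The call was lost without any one of the CTI-2 libraries, control 1 or control 3, where the adjusted p was 0.0501 to 0.183, and with a GC content trend removed. RPS27L overlaps LACTB on the opposite strand.

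**Figure D2:**
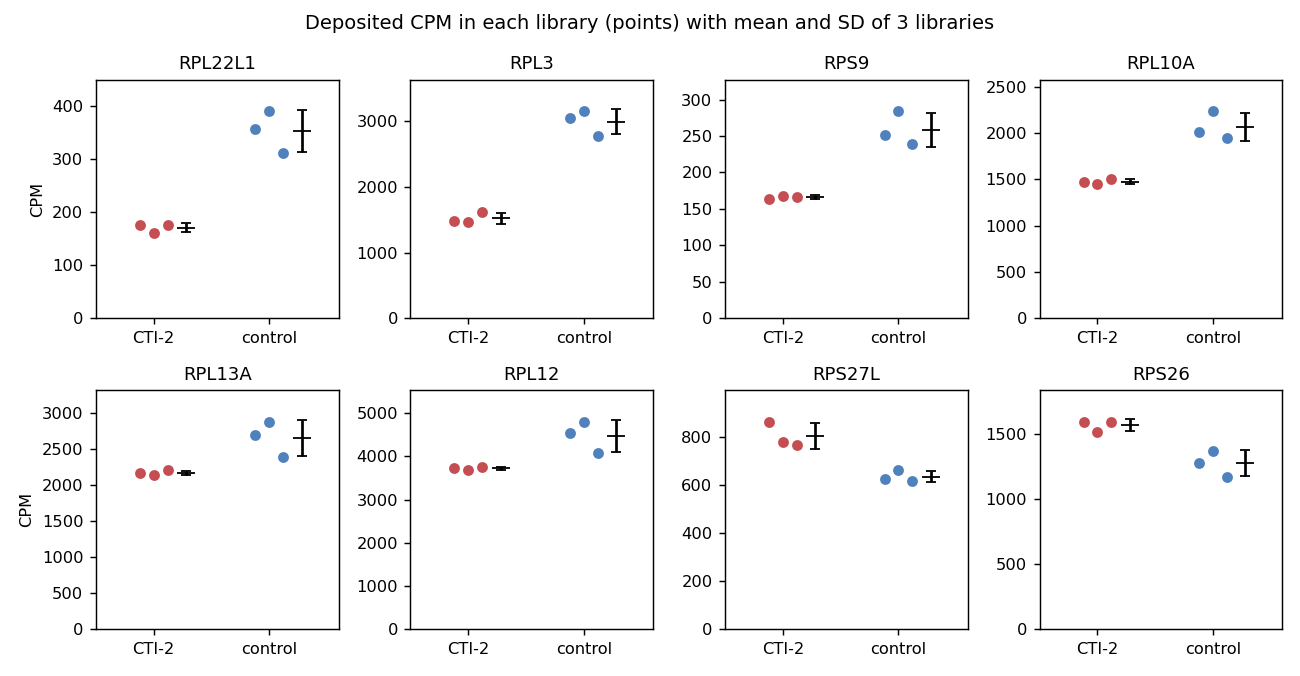
CPM of 8 members in each of the 3 CTI-2 libraries and the 3 control libraries (points), with the mean and SD of each group (bars); each panel has its own linear axis from 0. RPL22L1, RPL3, RPS9, RPL10A, RPL13A and RPL12 lie lower in every CTI-2 library than in any control, and RPS27L and RPS26 lie higher.

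The other members moved together from library to library. Control 2 was the highest control in CPM for 75 of the 83 tested members and control 3 the lowest for 76. For 53 members every CTI-2 library lay above controls 1 and 3, and for 52 control 2 lay above every CTI-2 library. CPM of the groups did not overlap for 25 tested members, 17 higher (20.5%) and 8 lower (9.64%), against 13.2 and 15.6% of all genes tested. How many members are called depends on control 2: without it, 54 members (65.1%) were called higher and 4 (4.82%) lower, against 9.57 and 6.53% of the 9995 genes then tested (16.1% in both directions). The median log2 fold change of the members was then 0.24. The 4 called lower were the same genes, RPL22L1 (-0.87), RPL3 (-0.84), RPS9 (-0.46) and RPL10A (-0.32).

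Library differences that followed transcript length moved with the members. Member transcripts are short, with a median annotated length of 757 bases against 2496 bases for other tested genes. The median deviation of log2(CPM + 1) from the mean of the 6 libraries was 0.035, 0.035 and 0.037 for members in CTI-2 libraries and -0.048, 0.092 and -0.15 in control libraries 1 to 3. For the other genes with the shortest transcripts, the first of 5 equal bins by length, it was 0.048, 0.049 and 0.046 with CTI-2 and -0.028, 0.015 and -0.097 in controls. The controls stand in the same order in both, but control 2 lay below the CTI-2 libraries for these genes and above them for the members. In the bin of the longest it was -0.033, -0.064 and -0.11 with CTI-2 and 0.15, -0.11 and 0.22 in controls. With each library's trend over transcript length removed, the member median was -0.03 and 2 members were called higher (RPS27L and RPS26) and 7 lower (RPL22L1, RPL3, RPS9, RPL10A, RPL12, RPL13A and RPS3), against 3.88 and 4.34% of the 9149 genes with an annotated length (8.22% in both directions). The sign of the member median thus depends on this step.

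**Figure D3:**
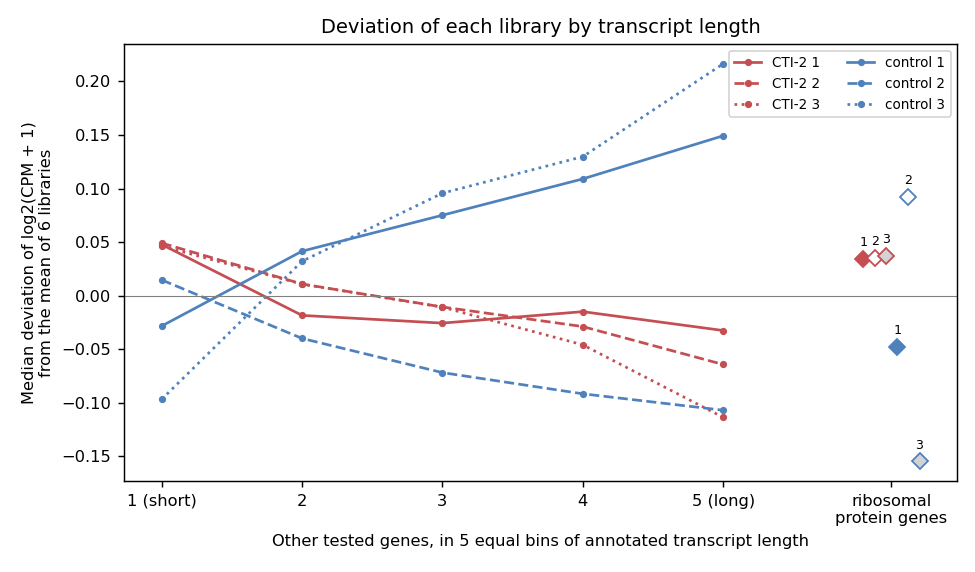
Median deviation of log2(CPM + 1) of each library from the mean of the 6 libraries, for 5 equal bins of the other tested genes by annotated transcript length (lines) and for the ribosomal protein genes (diamonds, numbered by library). CTI-2 libraries are red and controls blue; in controls 1 and 3 short genes and members lie low and long genes high, and in control 2 the reverse.

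Setting each gene against the summed reads of all members takes out differences between libraries that all members share. It does not take out a trend over transcript length among the members themselves. In this scaling, chosen after the data were seen, the median SE of a member was 0.04. The scaling centres the members near 0 by construction, and 69 of the 83 genes lay within 0.2 of 0 on the log2 scale. The same share over all genes tested was not taken. With edgeR's test on this scale 9 members were called higher and 8 lower, against 1.2 and 2.01% of all genes tested (3.21% in both directions). The scaling was built from the members and takes out spread that they share, while calls over all genes fell from 8.03%. The 3.21% is therefore not a like background for the 17 members called. Of these 17, 10 were called in each of the 6 fits that left out 1 library, among them RPL22L1 (-1.10), RPL3 (-1.03), RPS9 (-0.69), RPL10A (-0.54), RPL13A (-0.34), RPL12 (-0.32) and RPS3 (-0.18) lower, and RPS26 (0.25) and RPL35 (0.20) higher. The other 7, RPS27L (0.29), RPL38 (0.15), RPL36 (0.14), RPLP2 (0.14), RPL32 (0.12), RPS19 (0.12) and RPL7 (-0.17), were called in 2 of the 6. With the length trend removed, on the scale of all genes, RPL38 had 0.04, RPL36 0.06, RPLP2 0.08, RPL32 0.19 and RPS19 0.04. Without that step these were 0.25, 0.24, 0.24, 0.22 and 0.22. RPS27L had 0.25 with the step and 0.39 without it, and RPL7 -0.15 and -0.07. Of these 7, RPS27L alone passed with the length trend removed.

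RPL13A, which can leave the ribosome to silence inflammatory mRNAs, had 2167, 2148 and 2206 CPM with CTI-2, against 2704, 2886 and 2389.6 CPM in controls. RPL12, at the base of the stalk where translation factors dock, had 3739, 3678 and 3753 CPM with CTI-2 and 4557, 4811 and 4084 CPM in controls. Both sets of libraries are apart, with CTI-2 lower. On the scale of all genes their log2 fold changes, -0.25 ± 0.12 and -0.22 ± 0.12, did not pass the test (adjusted p = 0.213 and 0.279), and relative to the members they did (adjusted p = 7.3e-05 and 1.9e-05). RPS3, at the mRNA entry channel and also known as a DNA repair factor, had 3392, 3350.5 and 3505 CPM with CTI-2 and 3616, 4090.3 and 3458 CPM in controls, which overlap in CPM.

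At the other end, RPS26, which contacts mRNA at the exit channel, had 1595, 1517 and 1589.9 CPM with CTI-2, against 1277, 1372 and 1170.3 CPM in controls. RPL35, at the mouth of the peptide exit tunnel, had 4548, 4566 and 4627 CPM with CTI-2 and 3882, 4174 and 3503 CPM in controls. Both genes were higher in every CTI-2 library than in any control. On the scale of all genes neither passed the test (0.35 and 0.30 on the log2 scale; adjusted p = 0.062 and 0.137). Relative to the members they did, with adjusted p = 0.0049 and 0.0013. With the length trend removed, the log2 fold change of RPL35 on the scale of all genes was 0.09 (adjusted p = 0.274).

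**Figure D4:**
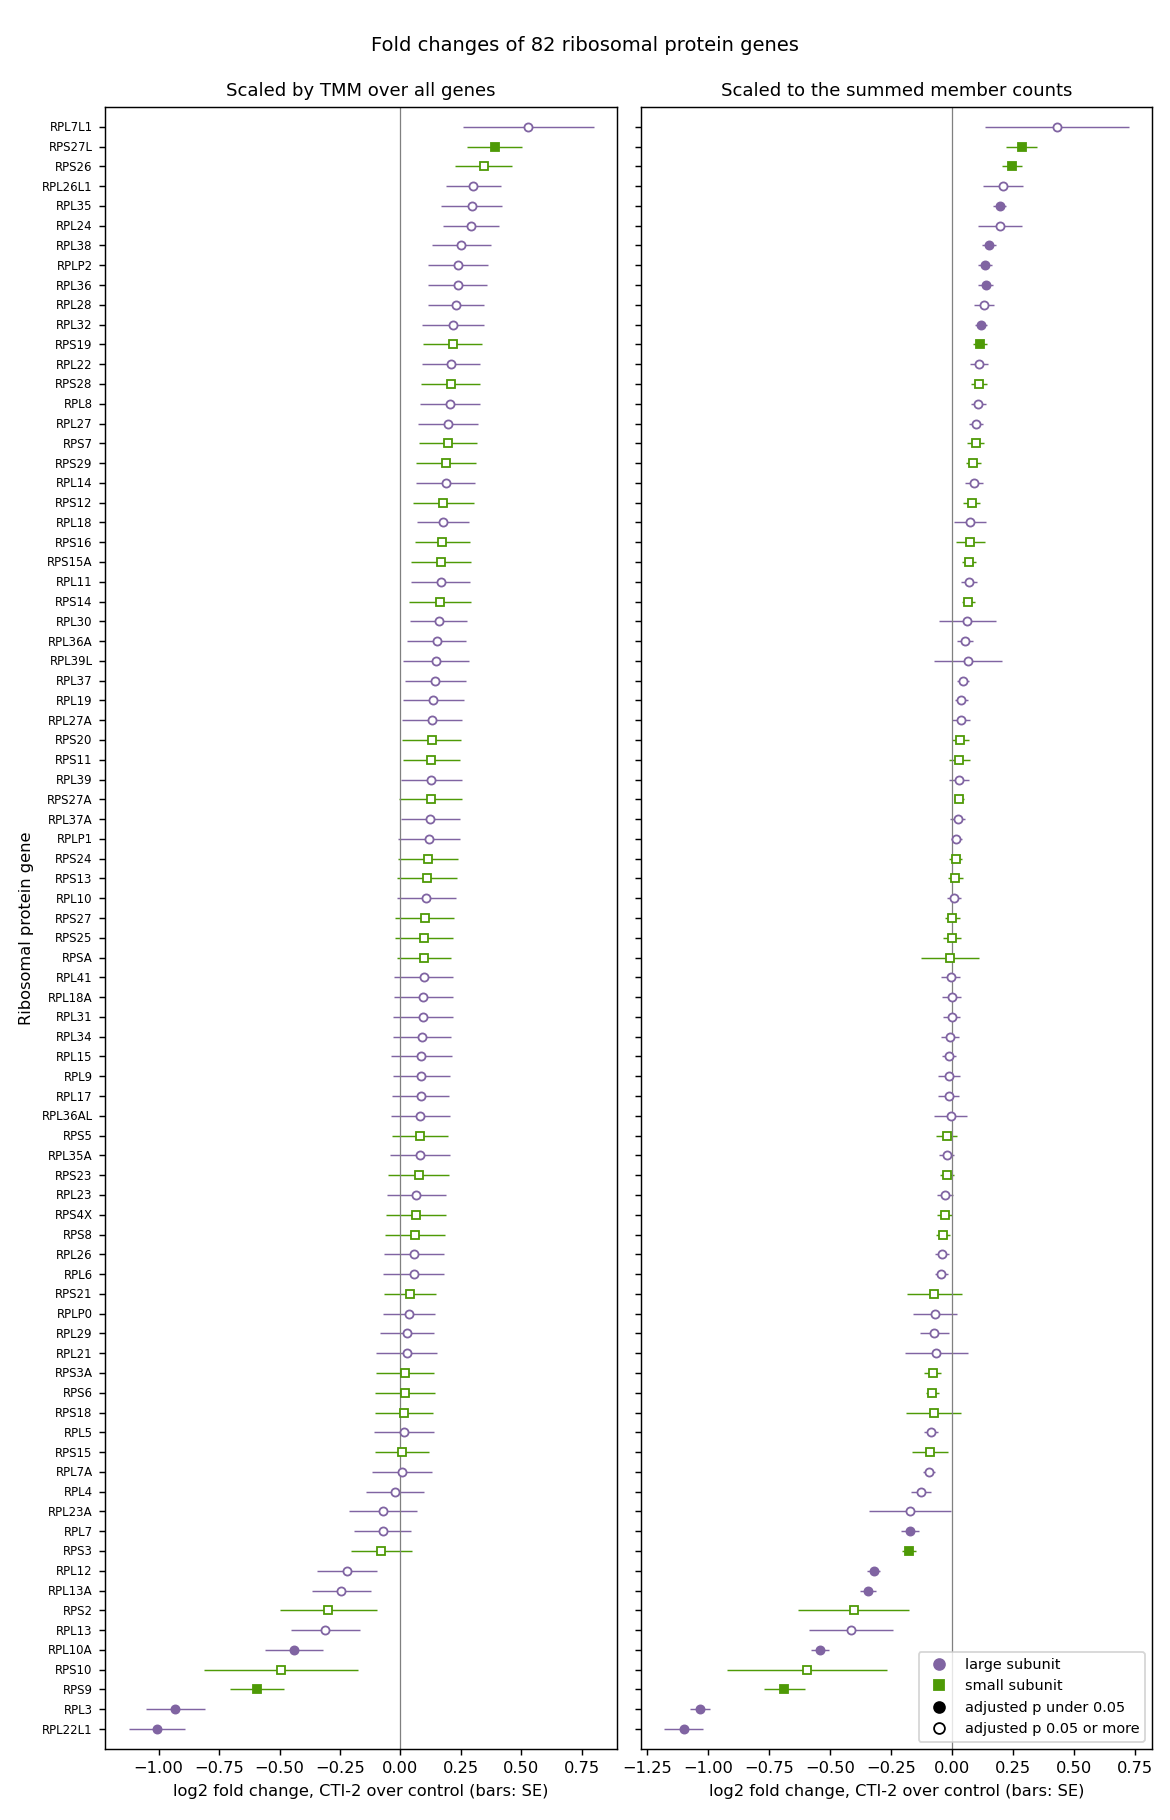
Log2 fold change of CTI-2 over control with its SE for 82 of the 83 tested members, ordered by the value on the scale of all genes (left) and on the scale of the summed member counts (right); filled symbols passed an adjusted p of 0.05. The left panel has 5 filled symbols and wide bars, the right panel 16 filled symbols and narrow bars.

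For some paralogs the reads per partner read lay apart between the groups, lower with CTI-2 for RPL22L1 and higher for others. RPL22L1 had 8.62, 8.18 and 9.13 reads per 100 reads of RPL22 with CTI-2, against 20.2, 20.6 and 19.1 in controls, while RPL22 itself did not pass the test (0.21 on the log2 scale, adjusted p = 0.286). RPS27L had 28.03, 26.3 and 24.6 reads per 100 of RPS27 with CTI-2 and 21.3, 20.5 and 23.0 in controls, while RPS27 did not pass it either (0.10, adjusted p = 0.672). RPL26L1, a near copy of RPL26, had 6.40, 6.72 and 6.60 reads per 100 of RPL26 with CTI-2 and 5.34, 5.62 and 5.63 in controls. In each of these 3 pairs, and for RPL7L1 against RPL7 (0.538, 0.634 and 0.669 with CTI-2, 0.456, 0.304 and 0.485 in controls), the groups do not overlap. RPL7L1 had only 18 to 29 counts per library.

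Each of these 4 differences had the smallest possible p of 0.1 (exact permutation test; 0.15 adjusted over the 6 pairs). RPL36AL had 24.5, 23.2 and 24.7 reads per 100 of RPL36A with CTI-2 and 23.6, 26.9 and 24.8 in controls (exact permutation p = 0.4). RPL39L, known for its level in testis, had 1.39, 1.58 and 1.84 reads per 100 of RPL39 with CTI-2 and 1.56, 1.63 and 1.44 in controls (exact permutation p = 0.8). The groups of these last pairs overlap. Near-identical stretches could let reads be assigned to the wrong partner, so the levels of paralogs are uncertain.

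**Figure D5:**
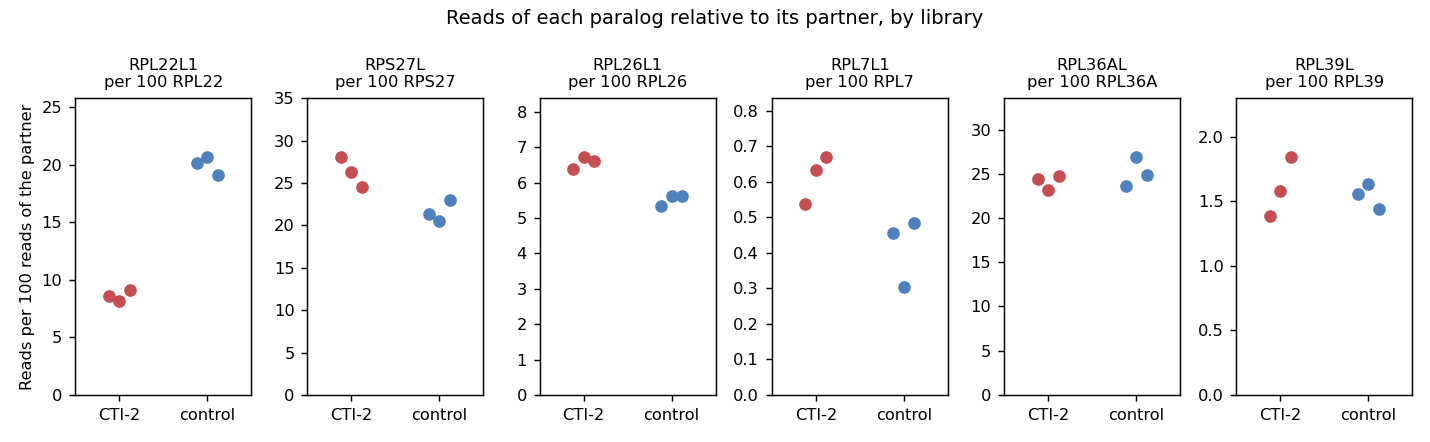
Reads of each paralog per 100 reads of its partner in the 3 CTI-2 and 3 control libraries (points), each panel with its own linear axis from 0. RPL22L1 lies at 8.18 to 9.13 with CTI-2 and 19.1 to 20.6 in controls, and RPS27L, RPL26L1 and RPL7L1 lie higher with CTI-2.

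Among the most abundant members, RPLP1 and RPLP2, the acidic proteins of the stalk that recruits elongation factors, had log2 fold changes of 0.12 ± 0.13 and 0.24 ± 0.12, and neither passed the test. RPLP1 had 7169.6, 7085 and 7324 CPM with CTI-2 and 6817, 7426 and 6289 CPM in controls. RPLP0, the protein that anchors both, had 296, 283 and 254.5 CPM with CTI-2 and 277, 284 and 281 CPM in controls. RPS27A, made as a fusion with ubiquitin, had 7291, 7373 and 7431 CPM with CTI-2 and 6874, 7638 and 6382 CPM in controls (log2 fold change 0.13 ± 0.13). Control 2 lies above all CTI-2 libraries for RPLP1 and RPS27A, and controls 1 and 3 below them. RPL32, RPL37 and RPS24, also among the 3 highest of their subunits in CPM, did not pass the test either (0.22, 0.14 and 0.11 on the log2 scale).

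RPL5, RPL11, RPS6, RPSA and RPL41, named whatever their outcome, did not pass the test. RPL5 and RPL11, which with 5S rRNA bind MDM2 when ribosome assembly is disturbed, had log2 fold changes of 0.01 ± 0.12 and 0.17 ± 0.12. RPL5 had 3098, 3001 and 3083 CPM with CTI-2 and 3104, 3411 and 2869 CPM in controls. RPL11 had 2373, 2349 and 2334 CPM with CTI-2 and 2127, 2399 and 1959 CPM in controls. RPS6, the substrate of the kinases that bear its name, and RPSA, also known as the laminin receptor, had 0.02 ± 0.12 and 0.10 ± 0.11. RPL41, which encodes the shortest of these proteins, had 0.10 ± 0.12.

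Levels of some members were far below those of their peers. RPLP0 is a case in point beside RPLP1, and 8 tested members averaged under 200 CPM: RPL7L1, RPL23A, RPL39L, RPL21, RPS18, RPL30, RPSA and RPS21. RPL23A had 41.2, 38.8 and 41.2 CPM with CTI-2 and 40.8, 43.5 and 47.2 CPM in controls. GENCODE 29 lists 1145 pseudogenes named after 77 of the members, 91 of them after RPL23A, and the count table used here holds none, so how their reads were counted or dropped was not tested. Across tested members the number of pseudogenes and the mean CPM had a Spearman correlation of 0.12 (83 genes, which are not independent and share their libraries). RPS10, which had the lowest fold among members that did not pass, varied most between libraries, with 502, 562 and 299.8 CPM with CTI-2 and 491, 752 and 743 CPM in controls. The read-through gene RPS10-NUDT3 on the same strand can take its reads, but had 7 to 32 counts per library, against 662 to 2955 for RPS10. In all, 36 members overlap another counted gene, 9 of them on the same strand.

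By annotation, 34 of the tested members have a transcript marked as a target of nonsense-mediated decay, including RPL22L1, RPL3 and RPS9 but not RPL10A, and their median log2 fold change was 0.11 against 0.10 for the others. For the 28 members with a small nucleolar RNA gene inside their annotated span on the same strand, as in RPL3, the median was 0.08 against 0.12. Gene-level counts do not separate transcripts, so the share of reads on decay targets was not tested.

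Genes that work with the ribosomal proteins were read from lists chosen with earlier results of these data known. FAU, a ribosomal protein made as a fusion with a relative of ubiquitin, and RACK1, a scaffold on the small subunit, are ribosomal proteins under other symbols. Neither passed edgeR's test, with log2 fold changes of 0.22 ± 0.12 and 0.04 ± 0.12 (adjusted p = 0.244 and 0.878). Of 21 tested TOP mRNA genes outside the ribosome, 0 rose and 1 fell, against 3.39 and 4.64% of all genes, and the median was -0.09. The one was EEF1D, a subunit of the elongation factor exchange complex, with 21.6, 21.6 and 24.0 CPM with CTI-2 and 39.7, 36.1 and 45.5 CPM in controls (log2 fold change -0.80 ± 0.16, adjusted p = 0.0013). EEF1A1, the abundant elongation factor of this list, had 4910.1, 4976 and 5260 CPM with CTI-2 and 5624, 5311 and 5194 CPM in controls. The snoRNA host transcript SNHG32, the one of 13 such genes in the table, rose by 0.41 ± 0.11 on the log2 scale (adjusted p = 0.015; 0.0515 to 0.0792 without CTI-2 library 1, CTI-2 library 2 or control 3). With the length trend removed it was 0.26 (adjusted p = 0.0635).

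Of 19 tested mTORC1 and TOP mRNA regulators 0 rose and 1 fell, against 3.39 and 4.64% of all genes, and the median was -0.16. It was EIF4G1, the scaffold of the cap-binding complex, with 213, 198 and 192 CPM with CTI-2 and 327, 266 and 354 CPM in controls (log2 fold change -0.59 ± 0.11, adjusted p = 0.00067). LARP1, which binds TOP mRNAs, had a log2 fold change of 0.11 ± 0.13. None of 9 tested genes of ribosomal protein gene transcription passed, with a median of -0.02, and MYC among them had 0.11 ± 0.11. In that last list 0 of the 9 genes had an unadjusted p under 0.05 in edgeR's test, and DESeq2 called 0. Of the 83 tested ribosomal protein genes 12 had such a p, and of all genes tested 23.9%.

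Among 16 tested chaperones and import factors of ribosomal proteins 2 rose and 0 fell, with a median of 0.12, and of all genes 3.39% rose and 4.64% fell. PDCD2L, a relative of the RPS2 chaperone PDCD2, had 40.9, 40.1 and 40.8 CPM with CTI-2 and 25.8, 26.0 and 28.1 CPM in controls (log2 fold change 0.66 ± 0.15, adjusted p = 0.0054). BCCIP, the chaperone of RPL23, rose by 0.36 ± 0.11 on that scale (adjusted p = 0.029). Of 8 tested genes of the surveillance by the RPL5 and RPL11 complex and p53, 1 rose, with a median of 0.26: CDKN1A, the cell cycle inhibitor induced by p53, had 363, 327 and 305 CPM with CTI-2 and 256, 242 and 287 CPM in controls (log2 fold change 0.40 ± 0.11, adjusted p = 0.018). MDM2 had 0.19 ± 0.21. The call of BCCIP was lost without any CTI-2 library, control 1 or control 3 (adjusted p = 0.0625 to 0.182) and with the GC trend removed (0.0588), and that of CDKN1A without CTI-2 library 1 or 2 or control 1 (adjusted p = 0.0722 to 0.16).

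Of 41 tested genes of rRNA synthesis and processing 5 rose and 1 fell, against 3.39 and 4.64% of all genes, and the median was 0.21 against -0.01 over all genes. UTP4, a component of the early small subunit processome, had 137, 131 and 144.5 CPM with CTI-2 and 102, 83.5 and 84.3 CPM in controls (log2 fold change 0.66 ± 0.11, adjusted p = 0.0003). NOP2, which methylates large subunit rRNA, had 139, 134 and 162 CPM with CTI-2 and 111, 91.9 and 94.5 CPM in controls (log2 fold change 0.60 ± 0.12, adjusted p = 0.0011). Every CTI-2 library lay above every control for both. DKC1 (0.42), EIF6 (0.39) and NOLC1 (0.39) also rose, and TAF1D, a cofactor of RNA polymerase I, fell by 0.43 on the log2 scale. Unlike UTP4 and NOP2, which were called in each of the 6 fits without 1 library, DKC1 was lost without CTI-2 library 2 or 3 (adjusted p = 0.0768 and 0.0694), and TAF1D without any one CTI-2 library (0.0619 to 0.078). NOLC1 was lost without any CTI-2 library, control 1 or control 3 (0.0627 to 0.139), and EIF6 without CTI-2 library 1 or 2, control 1 or control 3 (0.105 to 0.127) and in DESeq2 (0.0523). Of 16 tested ribosome quality control genes 0 rose and 2 fell, with a median of 0.00. EDF1, which senses collided ribosomes, had 375, 368 and 358 CPM with CTI-2 and 529, 581 and 515 CPM in controls (log2 fold change -0.52 ± 0.11, adjusted p = 0.0032). VCP, the ATPase that extracts stalled peptides, had 51.1, 84.6 and 93.3 CPM with CTI-2 and 188, 142 and 151 CPM in controls (log2 fold change -1.03 ± 0.19, adjusted p = 0.0066), a call lost without control 2 or control 3 (adjusted p = 0.0652 and 0.0691).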

How the data were processed

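Counts of 16362 genes in 6 libraries were used. Per the labels' protocols, total RNA was taken up in Trizol and made into cDNA with an Oxford Nanopore cDNA-PCR kit. The submitters' processing notes name the aligner minimap2. Its version, the build and annotation, the counting tool, its strand setting and its filters were not given in the sources used here. Deposited per gene were whole-number counts, and CPM that equal each count over its library total to within 1e-09. Amplified cDNA without molecular identifiers was read, and intervals and floors therefore cover counting error only. No replicate pair matched within sampling noise (1.68 to 6.03 chi-square units per degree of freedom).

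The agent named in the labels set the groups. The members and gene lists were chosen with earlier results of these data known. Genes kept by edgeR's filterByExpr (9848) were scaled by TMM and tested, CTI-2 over control, with edgeR 4.0.16's quasi-likelihood test (robust) in R 4.3.3. P-values were adjusted by Benjamini-Hochberg over all tested genes, with a threshold of 0.05, and every adjusted p given without another tool's name comes from this test. The common biological coefficient of variation was 0.100. Each SE is the fold change over the root of the test's F. CPM are the deposited values. In the scaling to the members, library size was the summed member count. Shares and ratios were compared by two-sided exact permutation tests (scipy 1.17.1). The fit was also tested on simulated data.

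All 14408 Ensembl identifiers are in GENCODE 29 (GRCh38), and 80.6% have the deposited gene length, including 62 of the 84 members; coordinates of genes are given only where these are equal. Transcript length and GC content are medians over a gene's basic protein-coding transcripts.

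Named were all called members, the 3 of highest CPM in each subunit, the paralog pairs, RPLP0, RPLP1, RPLP2, RPL5, RPL11, RPS6, RPSA, RPL41, FAU, RACK1 and up to 3 called genes of a list. Some genes that this rule took are not reported here. RPL12, RPL13A, RPS26, RPS3, RPL35, RPL38, RPL36, RPS19, RPS10, RPL23A and the other members under 200 CPM, EEF1A1, LARP1, MYC, MDM2, EIF6, NOLC1 and TAF1D were named after their values were seen. SNHG32 stands in the table as C6orf48. Alternatives were DESeq2 1.42.0's size factors, library totals, TMM without the members, other count filters, DESeq2, limma 3.58.1 (voom, and log2(CPM + 1)), leaving out each library, a block for the replicate number, an adjusted p of 0.01, and a lowess correction (span 0.3) of each library for transcript length or for GC content. Added after seeing the data were the scaling to the members, the reads of read-through genes, and the subunit ratio without the members called lower.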

Additional observations from a re-analysis of the deposited data

How the results depend on the processing

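RPL22L1, RPL3 and RPS9 stayed lower and past the threshold under every alternative tried except limma on log2(CPM + 1), where their adjusted p was 0.0577, 0.0577 and 0.0744 and 0 members (8 at an unadjusted p under 0.05) and 1 gene in all were called. In place of 5 members, 8 were called with library totals, 9 with the transcript length trend removed, 3 at an adjusted p of 0.01, and 3 to 58 when 1 library was left out (58 without control 2). In place of 791 genes in all, DESeq2 called 504, the stricter threshold 306, and fits without 1 library 400 to 1610. Of the 14 calls in the lists, 0 were left with limma on log2(CPM + 1) (29 list genes at an unadjusted p under 0.05), 7 at an adjusted p of 0.01, and 7 to 38 without 1 library. The 17 calls relative to the members became 10 at an adjusted p of 0.01 and 10 to 20 without 1 library. The member median of 0.10 was 0.0238 to 0.236 without 1 library and -0.0325 with the length trend removed. The difference in member share of 0.70 percentage points was -0.0851 to 1.55 without 1 library, reversed without control 3.

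Same-numbered libraries did not deviate together (correlations -0.05, 0.01 and -0.12), so the numbers were not taken to pair them. With the replicate block, 6 members were called, RPS10 (lower) added, and 942 genes in all; relative to the members 12 were called.

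Genes with log2 fold changes near 0 changed sign. With library totals these were RACK1 (-0.0090), RPL5 (-0.0339), RPLP0 (-0.0150) and RPS6 (-0.0304). With limma on log2(CPM + 1) they were RACK1 (-0.0049), RPL5 (-0.0279), RPLP0 (-0.0173) and RPS6 (-0.0244). With a filter of 20 counts in 3 libraries RPL5 (-0.0079) and RPS6 (-0.0041) did, and with the GC trend removed RPL5 (-0.0211) and RPS6 (-0.0169). With the length trend removed these were RACK1 (-0.0917), RPL26 (-0.0993), RPL36A (-0.0023), RPL36AL (-0.0553), RPL37 (-0.0202), RPL39 (-0.0904), RPL41 (-0.0800), RPL5 (-0.0844), RPLP0 (-0.0563), RPLP1 (-0.0877), RPS24 (-0.0562), RPS27 (-0.127), RPS27A (-0.0166) and RPS6 (-0.0686). Without 1 library the ranges that crossed 0 were -0.0274 to 0.146 for RACK1, -0.0454 to 0.187 for RPL26, -0.0257 to 0.280 for RPL36AL, -0.0751 to 0.137 for RPL5, -0.146 to 0.0563 for RPL7, -0.0143 to 0.0980 for RPLP0, -0.160 to 0.0512 for RPS3 and -0.0747 to 0.135 for RPS6. The cause of these changes was not tested.

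Adding pseudogene reads to their parents could not be run, since the count table used here holds none. Depth limits the low members: at 0.763 to 1.36 CPM for 3 counts, RPL3L and RPL7L1 carry large counting errors.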
